A study of Mus musculus with 24 samples.

Results

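The contractile apparatus of vascular smooth muscle was represented by 9 genes, Acta2, Myh11, Tagln, Cnn1, Mylk, Actg2, Des, Smtn and Lmod1, taken as every probe whose annotated symbol is one of these names. They had 15 of the 25697 probes on the array and are 9 of its 16593 named genes. Acta2 had 4 probes, Smtn 3, Mylk 2, and each of the others 1. Transcript levels were measured with Illumina bead arrays in heart, bone and white adipose tissue (white fat below) of male C3HeB/FeJ mice aged 117 days. The heterozygous mice carry 1 chemically induced (ENU) mutant copy of Ednra, named Y129F in the series title and spelled Endra in the sample labels, and the controls are wild-type. No other allele and no treatment is named for either genotype. There were 24 arrays, 4 for each genotype in each tissue. Hearts came from animals of their own, whereas bone and white fat shared animals by mouse number, and 1 mouse number stands under both genotypes (wild-type array 3 and heterozygous array 4 in each of those tissues).

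Vascular smooth muscle shortens when calcium activates myosin light chain kinase, which phosphorylates myosin and lets it pull on actin filaments. The type A endothelin receptor encoded by Ednra is one of the receptors that raise calcium in these cells, so its signal reaches the kinase. Many contractile genes are switched on by serum response factor, which binds a DNA element called the CArG box together with the coactivator myocardin. Acta2 encodes smooth muscle alpha-actin, Actg2 the gamma-actin typical of visceral smooth muscle, Myh11 the smooth muscle myosin heavy chain, and Mylk the kinase. Tagln (transgelin, SM22), Cnn1 (calponin) and Smtn (smoothelin) encode actin-binding proteins, Lmod1 an actin filament nucleator, and Des (desmin) an intermediate filament protein that cardiac and skeletal muscle also make in quantity.

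Promoter windows of RefSeq (build GRCm38.p6, 250 bases before to 50 bases after the annotated start) were at hand for 6 of the 9 genes: Acta2, Cnn1, Mylk, Des, Smtn and Lmod1. Each was searched for the CArG box, a pair of C, a core of 6 bases that are all A or T, and a pair of G, which reads alike on both strands. The exact box stood in 1.63% of 32851 windows and in 0 of these 6. A form with at most 1 C or G in the core stood in 9.98% of all windows and, among the 6, in that of Acta2, where it occurred 2 times, starting 84 and 34 bases before the start. The bases before the start are shown for Acta2 and Des, the members whose tissue patterns differed most plainly, with the matches in capitals. The Acta2 stretch lies at chr19:34255374-34255623 on the minus strand and the Des stretch at chr1:75360042-75360291 on the plus strand.
Acta2: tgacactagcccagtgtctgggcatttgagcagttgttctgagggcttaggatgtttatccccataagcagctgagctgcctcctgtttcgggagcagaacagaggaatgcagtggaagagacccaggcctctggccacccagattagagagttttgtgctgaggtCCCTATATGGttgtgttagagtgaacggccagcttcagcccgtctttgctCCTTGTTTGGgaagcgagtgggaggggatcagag
Des: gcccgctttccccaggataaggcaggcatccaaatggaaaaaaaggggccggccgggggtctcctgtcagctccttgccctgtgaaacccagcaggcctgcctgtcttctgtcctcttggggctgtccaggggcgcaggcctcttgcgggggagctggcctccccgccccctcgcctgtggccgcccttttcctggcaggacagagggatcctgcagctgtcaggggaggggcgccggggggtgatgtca
These matches describe letters in the window, and no binding was measured.

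At a detection p under 0.05, a heart array saw between 9931 and 12143 probes, a bone array between 13353 and 13919, and a white fat array between 12956 and 13710. Heart wild-type array 4 stood apart, with the lowest number and a median correlation of 0.838 with the other heart arrays, against 0.984 to 0.989 for those, so the main heart differences are also given without it. In white fat every heterozygous array was dimmer (mean raw signal 553 to 666) than every wild-type array (702 to 820). In heart every heterozygous array was brighter (433.5 to 476.7) than every wild-type array (368.3 to 420.6). The markers Myh6 (heart), Bglap2 (bone) and Adipoq (fat) were each highest in their labelled tissue, and no probe is paired with Ednra, whose level was not analysed here. Bone also held a strong skeletal muscle signal, with all 13 listed markers on the array detected and Myh4 and Mylpf detected on 8 of 8 arrays. Levels below are log2 of normalized intensity, changes are heterozygous minus wild-type unless stated, SDs are between the 4 arrays of a group, and p-values are from limma, adjusted by Benjamini and Hochberg over all genes tested.

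Of the 9 genes, 8 were detected widely enough to be tested in each tissue (detection p under 0.05 on at least 4 of 8 arrays). Cnn1 was the exception, being above background on 1 of 24 arrays, a heterozygous heart. Lmod1 was at the edge, detected on 4 of 8 arrays in every tissue and on 2 of 4 in every group.

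The tissues differed widely in these genes, and not in 1 order. Between tissues, with all 24 arrays normalized together, 7 of the 8 genes differed between heart and bone (81.4% of all 10557 genes did), 6 between heart and white fat (75.8%) and 5 between bone and white fat (75.4%), so the counts lie near the background. Without heart wild-type array 4 the counts were 8, 6 and 7 (85.1%, 79.9% and 81.2% of all genes). Heart minus bone and heart minus white fat were then 0.33 and -1.45 for Acta2, 1.21 and 5.52 for Des, and 2.74 and 2.54 for Smtn (log2). They were 1.76 and 0.30 for Myh11, 1.145 and 0.072 for Tagln, and 0.38 and 0.30 for Lmod1. These steps kept the calls given below. In whole tissue, fewer cells of a type and less RNA per cell cannot be told apart.

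Acta2 and the kinase gene were highest in white fat. Acta2 (probe 1) ran from 13.5 to 14.2 over the 8 white fat arrays, median 13.9, from 12.3 to 12.9 in heart, median 12.4, and from 11.8 to 12.2 in bone, median 12.1. White fat lay above every heart and bone array, 2.61-fold over heart (SE 0.0882 on the log2 scale, adjusted p = 1.77e-12). On this probe heart lay 1.33-fold over bone (adjusted p = 0.000226). The other Acta2 probes disagreed on heart against bone. Heart minus bone was -0.34 for probe 2, -0.75 for probe 3 and 1.11 for probe 4 (adjusted p = 0.181, 0.0305 and 6.71e-09 over all probes). White fat had the highest mean on each of them. Mylk followed with a range of 10.9 to 11.5 in white fat, 8.60 to 9.14 in bone and 7.58 to 9.06 in heart. White fat exceeded bone 5.10-fold (adjusted p = 1.96e-13), and heart minus bone was -0.34 (SE 0.135, adjusted p = 0.024). That step was -0.20 without heart wild-type array 4, was not called without the arrays numbered 1 or 3 (adjusted p = 0.0879 and 0.0634), and was -0.01 in heterozygous arrays alone. Actg2 ran from 6.10 to 8.33 in white fat, 6.39 to 7.29 in bone and 5.55 to 7.45 in heart. All 3 ranges overlapped, and of the 3 steps heart minus white fat passed (-0.97, adjusted p = 0.00163), at -0.36 in wild-type arrays alone (adjusted p = 0.457). Bone minus white fat was -0.53 (adjusted p = 0.0648), at 0.054 in wild-type arrays alone (adjusted p = 0.926) and -1.11 in heterozygous arrays alone (adjusted p = 0.00159). Without heart wild-type array 4, heart minus bone (-0.63) and bone minus white fat (-0.52) passed too (adjusted p = 0.015 and 0.038).

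Des and Smtn were highest in heart. Des stood at 12.6 to 12.8 in heart (median 12.7), 11.1 to 11.7 in bone (median 11.5) and 6.61 to 7.72 in white fat (median 7.13), with no overlap between tissues. Heart exceeded white fat 48.1-fold (adjusted p = 1.77e-22) and bone 2.33-fold, and bone exceeded white fat 20.6-fold. The summed skeletal muscle markers followed a different order, at 17.5 to 17.7 in bone, 14.9 to 15.2 in heart and 12.3 to 14.0 in white fat, with Myh4 detected on 0 heart arrays, and the summed cardiac markers were 17.1 to 17.4 in heart against 12.2 to 13.3 in bone, with white fat at 9.10 to 9.40. The part of these muscle fibres in the Des signal was not tested. Smtn (probe 2) lay at 11.5 to 12.6 in heart, above 9.44 to 10.0 in bone and, for white fat, 9.59 to 10.2. Heart was 6.22-fold over bone and 5.40-fold over white fat (adjusted p = 1.76e-15 and 1.14e-14). Bone minus white fat was -0.20 (adjusted p = 0.12), and without heart wild-type array 4 the same size passed (adjusted p = 0.0154). It was 0.050 in wild-type arrays alone (adjusted p = 0.86) and -0.45 in heterozygous arrays alone (adjusted p = 0.000378).

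The Smtn probes did not share 1 tissue order. Probe 3 followed probe 2, at 11.1 to 12.2 in heart against 8.87 to 9.37 in bone and 9.03 to 9.77 in white fat. Probe 1 was detected on 0 of 8 heart arrays and on 8 of 8 arrays of bone and of white fat. There it was at least 1.01-fold higher in bone and 1.17-fold higher in white fat than the lowest detected signal in heart. These bounds were not tested. The measured means were 5.49 in bone, 5.70 in white fat and 4.57 in heart. The p-values compare those means, bone and white fat each against heart (adjusted p = 1.05e-08 and 3.87e-10 over all probes).

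Myh11, Tagln and Lmod1 were lowest or joint lowest in bone. Myh11 ran from 7.68 to 9.55 in heart (median 9.35), 8.32 to 9.49 in white fat (median 9.18) and 7.18 to 8.01 in bone (median 7.47). Heart exceeded bone 3.04-fold and white fat exceeded bone 2.79-fold (adjusted p = 1.96e-07 and 6.59e-07), whereas heart minus white fat was 0.12 (adjusted p = 0.598), or 0.44 (adjusted p = 0.0103) without the arrays numbered 4. Tagln showed the same arrangement, with heart at 6.22 to 7.60, white fat at 5.97 to 6.82 and bone at 5.33 to 5.68. All heart and white fat arrays lay above all bone arrays for Tagln. Heart against white fat was 0.20 (adjusted p = 0.226) and turned to -0.43 (adjusted p = 0.0035) when arrays were scaled to their medians, a scaling that itself moved the median of all genes in that comparison from 0.07 to -0.10. Lmod1 was dim everywhere, with medians of 5.39 in heart, 5.01 in white fat and 4.96 in bone, and heart was 1.43-fold over bone (adjusted p = 0.00212) and 1.36-fold over white fat (adjusted p = 0.00802). Its signal on 4 of 8 arrays was below the detection limit in each tissue.

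**Figure D1:**
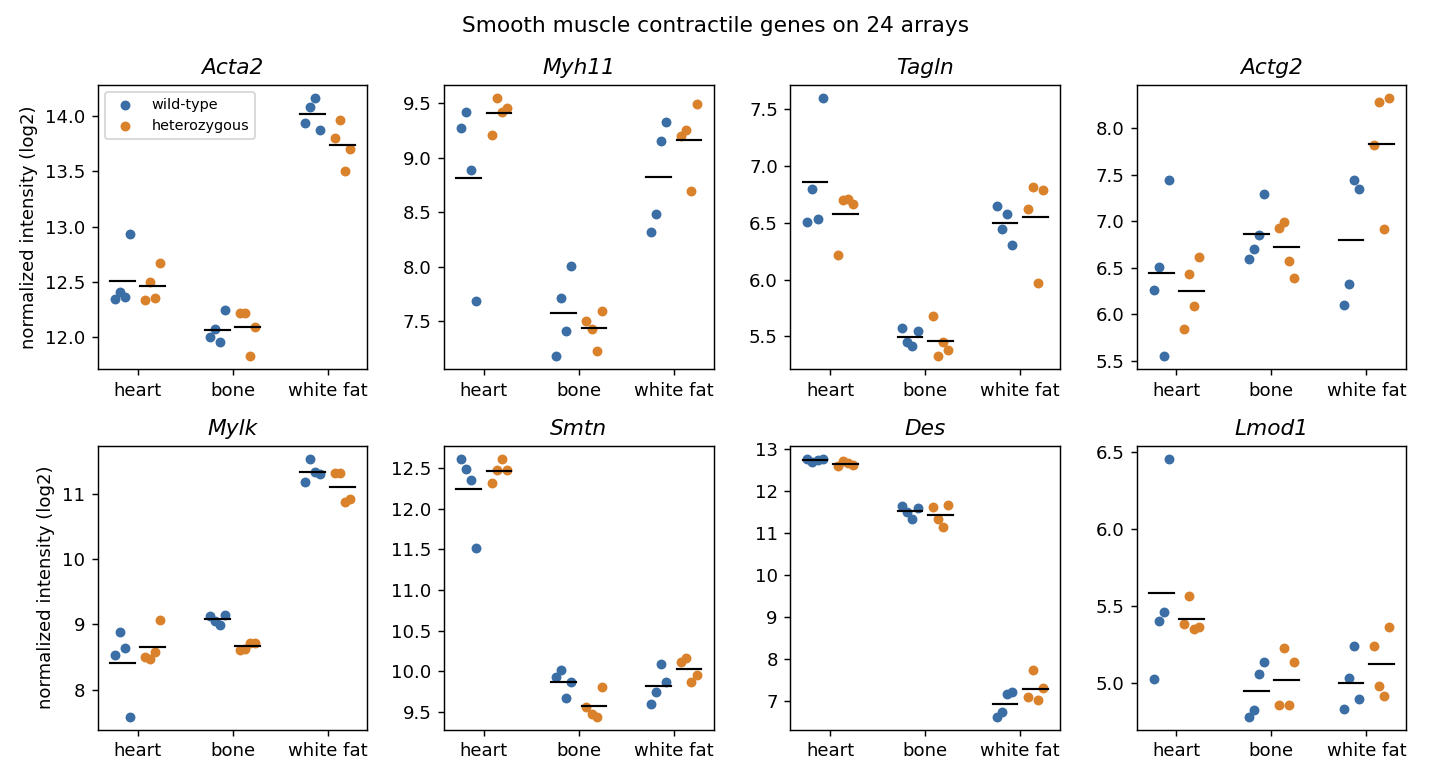
Normalized intensity (log2, vertical axis, a scale of its own for each gene) of 8 contractile genes on 24 arrays, by tissue and genotype, with dots for single arrays and lines for group means (n = 4). Acta2 and Mylk are highest in white fat, Des and Smtn in heart, and 1 wild-type heart array lies apart in most panels.

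Between genotypes, no contractile gene passed the threshold in any tissue, against 0% of 8535 genes in heart, 0.074% of 9460 in bone and 0.0108% of 9292 in white fat. At an unadjusted p under 0.05 there were 0 members in heart, 2 in bone (Mylk and Smtn) and 2 in white fat (Acta2 and Actg2), where the share of all genes was 5.53%, 18.5% and 29.6%. The median change of the 8 genes was -0.08 in heart, -0.11 in bone and 0.19 in white fat, against -0.09, -0.03 and 0.03 over all genes.

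**Figure D2:**
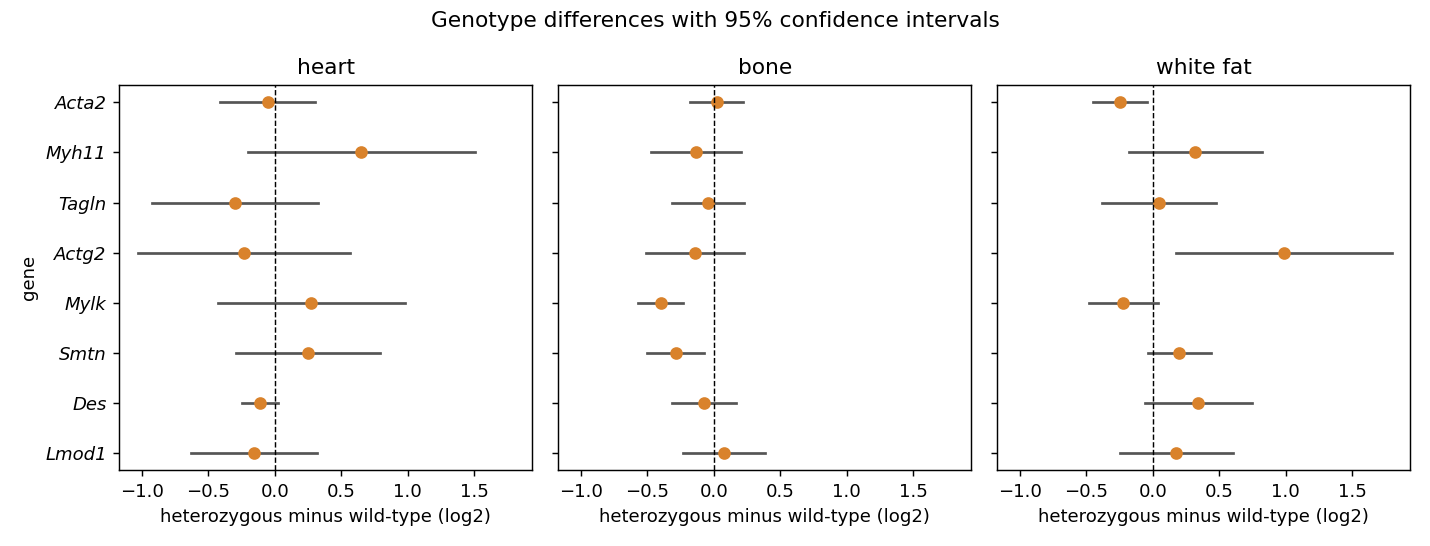
Heterozygous minus wild-type difference (log2, horizontal axis) of each contractile gene in heart, bone and white fat, with 95% confidence intervals from limma (n = 4 arrays per genotype). Mylk and Smtn in bone and Actg2 and Acta2 in white fat have intervals that leave out 0, and the heart intervals are the widest for most genes.

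In bone both probes of the kinase gene had no overlap between the genotypes, without passing the threshold. Mylk (probe 1) read 9.27, 9.20, 9.14 and 9.28 on the wild-type arrays and 8.76, 8.78, 8.87 and 8.88 on the heterozygous arrays. All 4 heterozygous arrays lay below all 4 wild-type arrays, which 9.87% of genes did in either direction. The means were 9.22 ± 0.0646 and 8.82 ± 0.0599 (SD, n = 4), a change of -0.40 (SE 0.0794, adjusted p = 0.0679). The second Mylk probe read 8.67, 8.96, 8.77 and 8.85 in wild-type and 8.55, 8.47, 8.53 and 8.49 in heterozygous bone, again without overlap, a change of -0.30 (SE 0.0902, adjusted p = 0.105 over all probes, of which 0.0155% passed and 9.55% had no overlap).

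Smtn in bone was also lower in the heterozygous mean, with less distance. Its probe 2 read 10.03, 10.12, 9.79 and 9.97 in wild-type and 9.68, 9.59, 9.57 and 9.91 in heterozygous bone, a change of -0.29 (SE 0.0978, adjusted p = 0.144). The groups overlapped through wild-type array 3 and heterozygous array 4, the arrays that share a mouse number. Without both of them Mylk changed by -0.44 (adjusted p = 0.0161) and Smtn by -0.43 (adjusted p = 0.0158), in a fit that called 7.94% of genes. Without wild-type array 3 alone both also passed (adjusted p = 0.0126 and 0.0463, 8.57% of genes called), and so they did with array weights (0.018 and 0.0402, 5.72% called). Leaving out any other single array left both above the threshold. These calls are with 1 probe per gene. With all probes tested, Mylk probe 2 passed with array weights (-0.32, adjusted p = 0.0388, 7.12% of probes called). It did not pass in any fit that left out arrays. Smtn probes 1 and 3 changed by -0.30 and -0.20, with overlap (adjusted p = 0.372 and 0.315 over all probes).

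Acta2 in bone depended on the probe and is given with its 4 probes below. The differences of its probe 1 and of Des, Tagln and Lmod1 lay between -0.08 and 0.07, and those of Actg2 and Myh11 were -0.14 and -0.13, none past the threshold. Macrophage markers were higher in heterozygous bone, with a summed level of 14.8 to 14.9 against 13.9 to 14.7 (8 of 9 means higher, 0 called). Neutrophil markers were also higher, at 17.30 to 17.46 against 17.11 to 17.29 (9 of 10 means higher, 0 called), and erythroid markers lower, at 16.43 to 16.54 against 16.56 to 16.63 (7 of 8 means lower, 0 called). None of these 3 sums overlapped between genotypes, while those of the other marker lists did, and 9.87% of single genes had no overlap in bone. The median changes of the macrophage, neutrophil and erythroid lists were 0.50, 0.22 and -0.28, against -0.03 over all genes. Skeletal muscle markers overlapped, at 17.6 to 17.8 in both genotypes. The part of these cells in the Mylk, Smtn and Acta2 values was not tested.

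**Figure D3:**
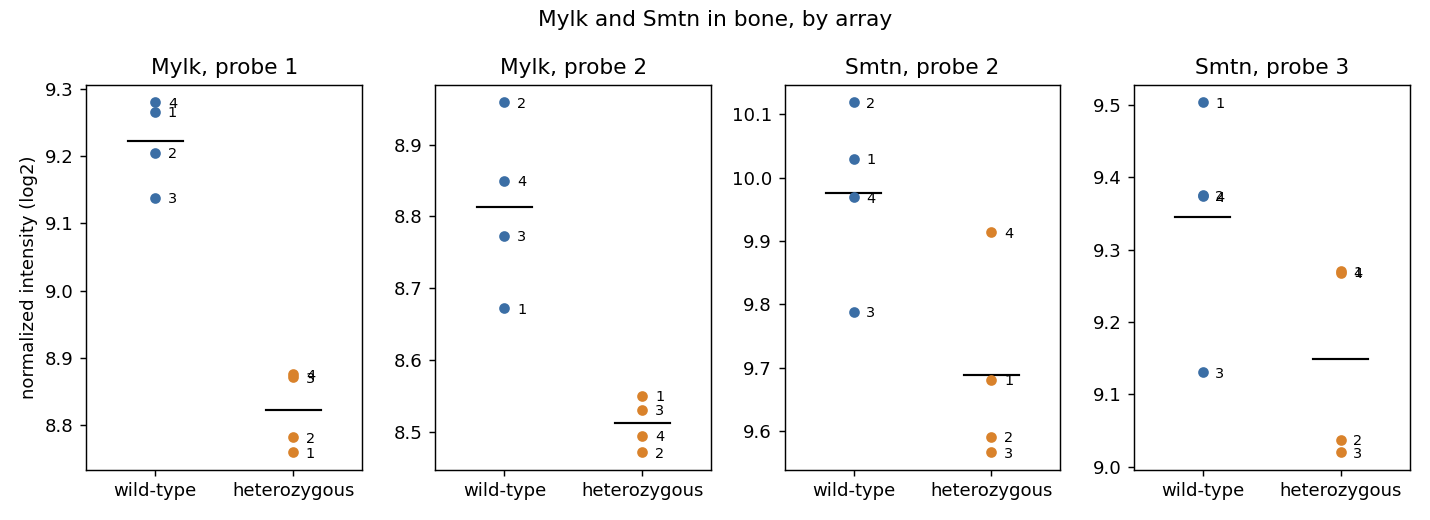
Normalized intensity (log2) of both Mylk probes and of Smtn probes 2 and 3 in bone, by genotype, with the array number beside each dot and lines at the means (n = 4). Both Mylk probes separate the genotypes, and the Smtn groups overlap.

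In white fat, with 1 probe per gene, Actg2 had the widest difference between means. Actg2 read 6.73, 6.97, 8.07 and 7.97 in wild-type and 8.41, 8.84, 7.56 and 8.88 in heterozygous white fat. The heterozygous mean was higher, at 8.42 ± 0.611 against 7.43 ± 0.682, but heterozygous array 3 lay below wild-type arrays 3 and 4. The change was 0.99 (SE 0.364, 1.98-fold, adjusted p = 0.114). Des read 7.27, 7.37, 7.79 and 7.82 in wild-type and 7.73, 8.32, 7.65 and 7.93 in heterozygous white fat, a change of 0.34 (adjusted p = 0.23). Its highest array, heterozygous array 2, also had the highest summed skeletal muscle markers, 14.3 against 12.7 to 13.1 on the other 7. All 10 mesothelial marker means were higher in heterozygous white fat, with overlapping sums of 12.8 to 13.0 against 12.2 to 13.2 and 0 called. Whether these cells bear on Actg2 or Des was not tested. Myh11, Smtn, Lmod1 and Tagln differed by 0.32, 0.20, 0.18 and 0.05 and Mylk by -0.22, none past the threshold.

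The 4 probes of Acta2 disagreed, most of all in heart and white fat. In white fat probe 2 read 11.62, 11.47, 11.10 and 11.19 in wild-type and 10.57, 10.53, 10.18 and 10.11 in heterozygous mice, and probe 3 read 12.08, 11.81, 11.35 and 11.42 against 10.79, 10.94, 10.78 and 10.53. For both, every heterozygous array lay below every wild-type array, as 16.5% of probes did in either direction. The changes were -0.999 (SE 0.14, adjusted p = 0.051) and -0.90 (SE 0.154, adjusted p = 0.0589), against -0.25 and -0.37 for probes 1 and 4, whose groups overlapped. Probe 2 ranked 4 of 12648 probes by p, and 0.00791% of probes passed. Both passed without wild-type array 3 (adjusted p = 0.0245, 10.4% of probes called), without wild-type array 4 (0.028, 11.9%), with array weights (0.0263, 14.5%) and when probes had to be detected at p under 0.01 on all 8 arrays (0.0393 and 0.0431, 3.97%). With all 24 arrays normalized together probe 2 passed (0.0434, 0.087%). Neither passed when any other single array was left out, or without both arrays that share a mouse number. With array brightness as a covariate the changes of probes 2 and 3 were -0.57 and -0.54 (adjusted p = 0.969 for both, 0 of 12648 probes called). Every heterozygous white fat array was dimmer than every wild-type array, so that fit cannot separate genotype from brightness.

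In heart the means of the same probes differed in the opposite direction. Probe 2 read 5.67, 6.18, 6.13 and 5.29 in wild-type and 7.39, 5.49, 7.05 and 8.27 in heterozygous hearts, and probe 3 read 6.05, 6.35, 6.46 and 4.56 against 7.71, 5.68, 7.40 and 8.63. On both probes 3 heterozygous arrays were above every wild-type array and array 2 was not, and probe 3 was not above background on wild-type array 4. The changes were 1.23 and 1.503 (adjusted p = 0.602 for both), or 1.02 and 1.03 without that array, while probes 1 and 4 differed by -0.06 and 0.00. With array brightness as a covariate the changes of probes 2 and 3 were 1.32 and 1.87 (adjusted p = 0.477 for both). Every heterozygous heart array was brighter than every wild-type one, so that fit cannot separate genotype from brightness. In bone probe 2 read 7.49, 7.54, 7.67 and 7.64 in wild-type and 8.10, 8.14, 7.93 and 7.73 in heterozygous mice, without overlap, a change of 0.39 (adjusted p = 0.103). It passed without wild-type array 3 (0.0494, 10.3% of probes called), with array weights (0.45, adjusted p = 0.0272, 7.12%) and without both arrays that share a mouse number (0.501, adjusted p = 0.0175, 9.99%). Probe 3 differed by 0.29 (adjusted p = 0.152), with overlap. The distance between the highest and lowest change among the 4 probes was 1.56 in heart, 0.42 in bone and 0.75 in white fat. Among genes with several tested probes, 1.78% of 1971, 15.2% of 2486 and 1.90% of 2424 had a distance as wide. The position of each probe on the transcript was not analysed here.

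Macrophage marker levels followed the order of Acta2 probe 2 in white fat. Their summed level in white fat was 14.3 to 15.2 in wild-type and 13.8 to 14.2 in heterozygous mice, with 9 of 9 means lower and 0 called. The order of the 8 white fat arrays by that sum was the same as by Acta2 probe 2. Of the 15 marker lists 1 other had that order, the osteoblast list with 2 tested genes. By probe 3, 6 of 8 arrays held the same rank as by the macrophage sum, and 0 of the 15 lists had the same order. Mean raw signal gave nearly the same order as probe 2. It swapped wild-type arrays 3 and 4 (732.6 and 702.1) and heterozygous arrays 3 and 4 (553 and 642.7). In heart the macrophage sum was 11.0 to 11.7 in wild-type and 11.7 to 12.5 in heterozygous mice. There heterozygous array 4 was highest and wild-type array 4 lowest, as on probe 2. In heart 4 of 8 arrays held the same rank by the macrophage sum and by probe 2, and in bone 2 of 8. The closest other list held 3 of 8 in heart. In bone the neutrophil list held 4 of 8, more than the macrophage list. Heterozygous heart array 2 was above every wild-type heart in the sum but below 3 of 4 on probe 2. These orders were looked at after the values were seen, and the part of macrophages in the probe values was not tested.

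**Figure D4:**
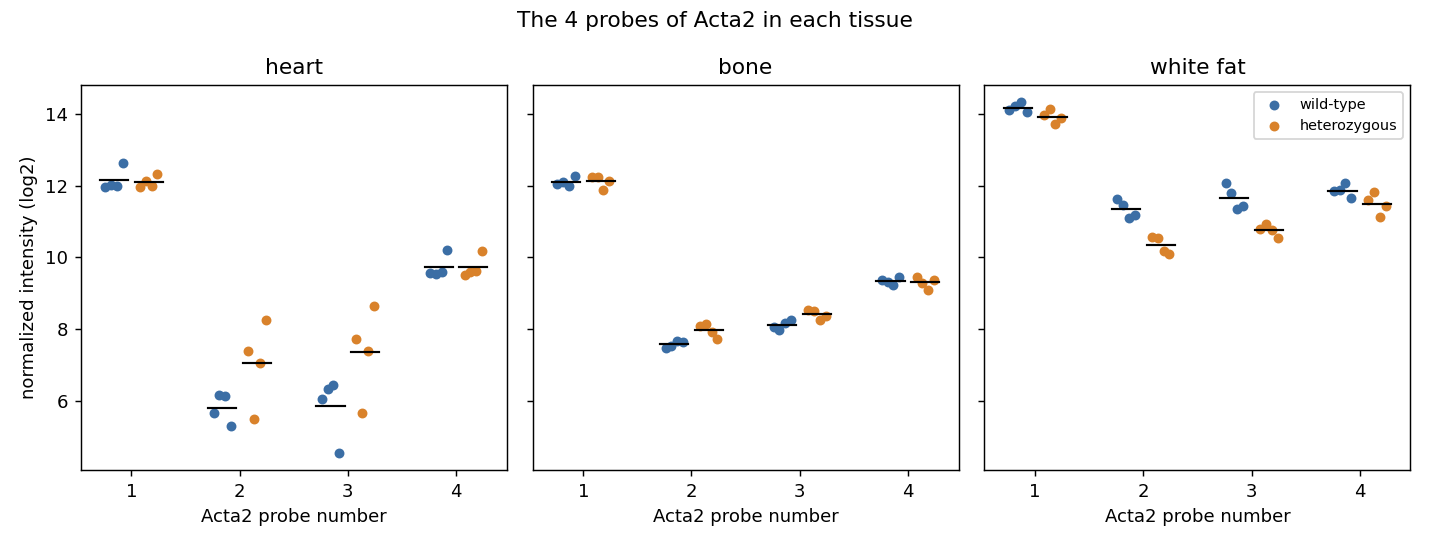
Normalized intensity (log2) of the 4 Acta2 probes in each tissue, normalized within the tissue, with dots for arrays and lines for group means (n = 4 per genotype). Probes 2 and 3 are lower in heterozygous white fat and higher on 3 of 4 heterozygous heart arrays, while probes 1 and 4 are close between genotypes in heart and bone.

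The genotype effect on Acta2 probes 2 and 3 differed between heart and white fat. Heterozygous arrays were all brighter than wild-type arrays in heart and all dimmer in white fat. Genotype and brightness therefore cannot be told apart in this difference, and the interaction was not fitted with brightness. Tested as an interaction over all 24 arrays, the effect in heart minus that in white fat was 2.14 for probe 2 (SE 0.467, adjusted p = 0.032) and 2.43 for probe 3 (SE 0.622, adjusted p = 0.0378), where 4.79% of 9814 probes passed. Both kept their call without heart wild-type array 4 (1.93 and 1.86, adjusted p = 0.0152 and 0.0197, 10.5% of probes called). Both lost it without the arrays numbered 1 or 3 (adjusted p from 0.09 to 0.181), as probe 3 did without those numbered 2 (0.0911). The other tissue pairs did not pass for these probes. Heart minus bone was 0.73 and 1.19 (adjusted p = 0.516 and 0.465), and bone minus white fat 1.41 and 1.24 (adjusted p = 0.105 and 0.282). With 1 probe per gene, 0 of the 8 genes differed in genotype effect between heart and bone, heart and white fat, or bone and white fat (0.0261%, 5.89% and 2.26% of 7659 genes did). For Smtn the effect in bone minus that in white fat was -0.51 (adjusted p = 0.227), and it passed without heart wild-type array 4 (-0.50, adjusted p = 0.0255, 16.3% of genes called).

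In heart, with 1 probe per gene, several genotype differences depended on 1 array. Wild-type array 4 was the highest of 8 for Acta2, Actg2, Lmod1 and Tagln and the lowest for Myh11, Mylk and Smtn. Myh11 read 8.65, 8.81, 8.24 and 6.89 in wild-type and 8.58, 8.95, 8.81 and 8.85 in heterozygous hearts, a change of 0.65 (SE 0.378, adjusted p = 0.608) that was 0.23 without that array. Acta2, Actg2, Mylk and Smtn, at -0.06, -0.23, 0.27 and 0.25 with it, were 0.10, 0.11, -0.03 and -0.02 without it. Des was the steadiest, at 12.44, 12.35, 12.40 and 12.43 in wild-type and 12.23, 12.38, 12.33 and 12.26 in heterozygous hearts, a change of -0.11 (SE 0.0601, adjusted p = 0.608).

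Other genes of the same machinery gave no call. Of 25 further contractile and cytoskeletal genes on the array (such as Myl9, Tpm1, Cald1 and Vcl), 20 were tested in heart, 21 in bone and 20 in white fat, and 0 passed in either direction, with median changes of 0.04, 0.02 and 0.06. Of 19 regulators of the contractile program, among them Srf and Myocd, 16, 14 and 16 were tested and 0 passed (medians 0.06, -0.04 and -0.01). Their summed level in white fat was lower on every heterozygous array (13.8069 to 13.8788) than on every wild-type array (13.8845 to 14.013), though 8 of 16 means were higher. In white fat 16.5% of single probes had no overlap in either direction. The sums of these regulators overlapped in heart and bone. Of 13 genes of vascular tone signalling 7, 11 and 9 were tested and 0 passed (medians -0.13, -0.08 and 0.02). Pericyte markers, which share vessel walls with smooth muscle, had 8, 9 and 9 tested and 0 past the threshold, and their summed levels overlapped between genotypes in each tissue (11.47 to 11.53 and 11.42 to 11.48 in heart, 10.3 to 10.9 and 10.6 to 10.9 in bone, and 13.1 to 13.2 and 13.1 to 13.3 in white fat, heterozygous first).

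The genes whose level, centred within genotype, went most closely with the mean of the contractile genes over the 8 arrays of a tissue were Klhl38 in heart (Pearson r = 0.976, followed by Chmp4b, Cd63, Tmem109 and Src), Osmr in bone (0.986, followed by Riiad1, Fgf13, Rpl3l and Slc2a4) and Limk2 in white fat (0.98, followed by Ldb2, Surf2, Abi3 and Hint3). They are given as a description, chosen as the highest among all tested genes on arrays that share tissue and brightness.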

How the data were processed

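The authors deposited raw bead-array intensities in 1 table and, in another, normalized intensities after background subtraction, beside a detection p-value per probe. Which table is which was read from the values, since the headers and sample labels do not settle it. The table deposited under the name non-normalized was taken as the normalized one, against that name. Images were read with GenomeStudio 2011.1, per the submitters' processing notes. The authors' method of normalization was not given in the sources used here.

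The background of the raw table was corrected with limma's normexp by detection p-value. An offset of 16 was added, so changes of dim probes are understated. Then log2 was taken, and arrays were brought to the same quantiles in each tissue (over all 24 arrays for tissue levels and interactions). A probe was tested between genotypes in a tissue when detected at p under 0.05 on at least 4 of its 8 arrays. Fits of tissue levels kept probes that met this in at least 1 tissue, and interaction fits those that met it in every tissue. The brightest kept probe on average stood for its gene. Genotypes were compared with limma 3.58.1 (moderated test with a variance trend, R 4.3.3), adjusted by Benjamini and Hochberg over all genes or probes, threshold 0.05. Tissue and interaction fits took the mouse number as a random block (statmod 1.5.0), so the number under both genotypes counted as 1 animal. The consensus correlation was 0.0126 and 0.0066 with 1 probe per gene, and 0.0034 and 0.0043 with all probes. That block comes from the mouse numbers of the labels, and deviations of bone and white fat from 1 animal correlated at -0.271 to 0.047. Nothing beyond mouse numbers describes how replicates were raised. The number of arrays limits the precision, and no slide or scan date was used. Text names all probes of the 9 genes, and in each tissue the 5 genes closest in pattern. Members, lists and tests were chosen with earlier results of these data known. Steps were tested on simulated data. Alternatives changed the background, offset, normalization, filter, probe choice, input values, variance model, array weights, blocks, brightness covariate and arrays; the fit without heart wild-type array 4 over all tissues, and the Acta2 and Mylk probes under every setting, were added after seeing the data.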

Additional observations from a re-analysis of the deposited data

Results flagged for a closer look

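Of 82 sets of 4 arrays tested for a sample far from the rest, 7 had a gap to the nearest array, as a share of the whole range, above Dixon's 95% critical value for 4 samples; chance alone gives about 1 in 20. All lay in heart. Wild-type array 4 was highest for Acta2 probe 1 (0.9 of the range, 12.63 against 12.03) and Acta2 probe 4 (0.936), and lowest for Mylk probe 2 (0.876, 4.28 against 6.77) and Smtn probe 3 (0.885, 10.58 against 11.61). Among heterozygous hearts, array 4 was highest for Acta2 probe 4 (0.848), array 1 lowest for Tagln (0.895) and array 2 highest for Lmod1 (0.849).

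The genotype effect of Acta2 probes 2 and 3 differed between heart and white fat by the interaction test, by 2.1409 and 2.4304 on the log2 scale (limma, adjusted p = 0.032 and 0.0378), with the means higher in heterozygous hearts and lower in heterozygous white fat. Array brightness differed between genotypes in the same directions in both tissues, so it cannot be told apart from genotype here.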

How the results depend on the processing

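With 1 probe per gene, the tissue order of Acta2, Des and Smtn in heart against the other tissues kept its calls under every alternative. The heart against bone step of Acta2 was that of its probe 1, and probe 3 went the other way. Between genotypes, with 1 probe per gene, 0 contractile genes were called in heart or white fat under any alternative. With all probes tested, white fat had a call on Acta2 in 6 of 22 settings. In bone 2 genes (Mylk and Smtn) were called with array weights and 2 without the arrays that share a mouse number, and leaving out 1 array gave 0 to 2. For the genotype effect in bone minus white fat, leaving out 1 replicate number or heart wild-type array 4 gave 0 to 1 (Smtn). Calls over all genes moved far more, from 0 to 803 in bone (7 as reported), 0 to 1653 in white fat (1 as reported) and 0 to 1 in heart. With brightness as a covariate they were 0 in each tissue. In heart and white fat brightness separated the genotypes, so that fit cannot tell genotype from brightness there. Heterozygous hearts were all brighter (433.5 to 476.7) than wild-type hearts (368.3 to 420.6).

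Several differences below the threshold turned sign. In heart, median scaling gave 0.020 for Actg2 and 0.0045 for Lmod1 (the median of all genes is near -0.09 as reported and 0.07 there), and array weights gave 0.078 for Acta2, 0.064 for Lmod1, -0.091 for Mylk and -0.011 for Smtn. Without the shared mouse number Acta2 in bone was -0.012 and Tagln in white fat -0.0054. In white fat, median scaling gave -0.070 for Tagln, and the brightness covariate 0.024 for Mylk and 0.081 for its probe 2. Between tissues, heart minus white fat under median scaling was -0.20 for Myh11 and -0.43 for Tagln, and wild-type arrays alone gave -0.0062 for Myh11 there and, for bone minus white fat, 0.054 for Actg2 and 0.050 for Smtn. Lmod1 lost its heart minus white fat call under cyclic loess (0.21, adjusted p = 0.0735). The cause was not tested.

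Leaving out 1 array gave, in heart, -0.13 to 0.10 for Acta2, -0.49 to 0.11 for Actg2, -0.030 to 0.45 for Mylk and -0.022 to 0.38 for Smtn. In bone it gave -0.021 to 0.10 for Acta2, -0.15 to 0.018 for Des, -0.26 to 0.0041 for Myh11 and -0.13 to 0.0038 for Tagln, and in white fat -0.047 to 0.25 for Tagln. Leaving out 1 replicate number in every group, or heart wild-type array 4, gave -0.042 to 0.44 for Myh11 in heart minus white fat.

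The deviations of same-numbered arrays of both genotypes correlated at -0.192 to 0.189 for hearts, between -0.092 and 0.047 for bone, and from -0.035 up to 0.357 for white fat (3 of 4 over 0.1). As pairing was taken only where every pair exceeded 0.1, the numbers were not treated as pairs, which is least clear in white fat. With that number as a replicate block 0 of the 8 genes were called in each tissue. Of all genes, 0 of 8535 were called in heart, 2 of 9460 in bone and 1306 of 9292 in white fat. With all probes tested, Acta2 probes 2 and 3 and Mylk probe 2 passed in white fat (adjusted p = 0.00188, 0.00531 and 0.0435), as 1749 of 12648 probes did. Without the animal block, Acta2 probes 2 and 3 gave 2.14 and 2.43 for heart minus white fat. Cnn1 and Lmod1 lay at or near background, which limits what their values can show.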
